A study of Mus musculus with 32 samples.

Results

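The genes described here are 38 genes known for stem cell identity and self-renewal in blood, out of 41388 genes listed in each deposited table. They were chosen by name, with earlier results of these data known, and each of the 38 symbols matched 1 Ensembl gene of the tables. By role they fall into 15 transcription and RNA regulators, 9 receptors, adhesion molecules and transporters, 4 secreted proteins, 8 intracellular effectors and 2 interferon-induced membrane proteins. All 38 passed the filter on low counts in both cohorts described next, so every member was tested in every comparison.

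RNA was sequenced in 24 of the 32 samples of the series, and the other 8 (a histone mark assay) were not analysed here. Sorted bone marrow cells came from pools of C57BL/6 mice of both sexes, and the protocol describes the pools in 2 ways that differ in the number of mice. Haematopoietic stem cells (HSC) were Lin-, cKit+, Sca1+, CD150+ and CD48-, while multipotent progenitors (MPP) shared that gate apart from CD150, which they lacked. In the Vav cohort, mice of 8 weeks carried Vav-Cre, a recombinase driven in blood cells of all lineages and in part of the endothelium, and the 4 groups of 3 libraries were control HSC, control MPP, Jarid2-KO HSC and Jarid2-KO MPP. The Mx1 cohort came from mice of 10 weeks, 2 months after pIpC, an inducer of interferon that switches on Mx1-Cre in blood and in other tissues. HSC and MPP were sorted from 3 genotypes, which makes 6 groups of 2 libraries: control, Jak2V617F, and Jak2V617F combined with Jarid2-KO (called the double mutant). For 1 Mx1 genotype the series text reads Jarid2-KO only, while its samples are labelled Jak2V617F, and the labels of the samples were used. The labels give a Cre driver for every group, controls included, and time since pIpC for every Mx1 group. Nothing in the labels says which pools are separate animals within a group beyond the term biological replicate, and the tests take in only the spread among these libraries, which may be technical.

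Stem cells of adult marrow divide rarely and keep their identity through a set of transcription factors (Hlf, Mecom, Meis1, Prdm16, Erg), through surface receptors that tie them to their niche (Tek and its ligand Angpt1, Itga6, Esam), and through regulators of survival and metabolism (Foxo3, Txnip). As stem cells pass to multipotent progenitors, much of the transcription factor set persists, while genes of the platelet-biased and most quiescent stem cells, such as Vwf and Clu, decline. Jarid2 helps recruit Polycomb repressive complex 2, which methylates histone H3 at repressed genes, and Jak2V617F is an activating kinase mutation found in myeloproliferative neoplasms.

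The Vav libraries held 10473535 to 27232379 counts each, and the Mx1 libraries 7852483 to 20724168. Jarid2 itself, summed over all its exons, stood at 77.6 to 109 CPM (counts scaled to the library total) in control HSC and 80.2 to 144 CPM in Jarid2-KO HSC. In MPP it was 91.8 to 126 CPM in control and 107 to 129 CPM in Jarid2-KO, and in the Mx1 cohort 45.6 to 69.1 CPM in the 8 control and Jak2V617F libraries against 52.6 to 169 CPM in the 4 double mutant libraries. The deleted part of the gene is not given in the sources used here, so this summed count does not check the knockout. Slamf1, which encodes CD150, followed the gate in the Vav cohort, at 57.4 to 66.1 CPM in control HSC and 3.35 to 5.03 CPM in control MPP.

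2 features of the libraries touch the results and come first. In the Vav cohort, Jarid2-KO MPP replicate 1 stood apart: its summed level of the 38 members was 5509 CPM against 8055 to 10621 CPM in the other 11 Vav libraries. In that library 14 members lay below the range of the other 11 and 2 (Tie1, Krt18) above it, where 22.4% and 22.8% of all genes tested did the same, while an 11-gene granulocyte and monocyte list reached 23598 CPM against 1269 to 13920 CPM in the others. Its mitochondrial genes took 0.559% of counts against 1.63% to 3.46% in the others, and an immediate early list stood at 1334 CPM against 125 to 387 CPM. In the Mx1 cohort, the 8 control and Jak2V617F libraries held the members at a summed 1304 to 2589 CPM and the granulocyte and monocyte list at 18954 to 80551 CPM, with Cd48 (CD48) at 37.4 to 133 CPM, above the 6.46 to 14.4 CPM of Vav control HSC. The libraries labelled Mx1 control HSC had Slamf1 at 0.196 and 5.21 CPM and Mpo, a granule enzyme of myeloid progenitors, at 13651 and 17224 CPM, so their RNA goes against the labelled gate. Those labelled Jak2V617F HSC held the granulocyte and monocyte list at 58567 and 33994 CPM, against 1269 to 3826 CPM in Vav control HSC. Their 17-gene progenitor and lineage priming list stood at 10906 and 6998 CPM, against 446 to 781 CPM. Their RNA thus also departs from that of Vav cells of the same gate. Heart muscle genes also took 4.05% to 6.18% of counts in 6 Mx1 libraries and 0.351% to 0.814% in the other 6, against at most 0.0024% in Vav. The same 6 libraries were high in a 10-gene endothelial list (551 to 766 CPM, against 68.9 to 134 CPM in the other 6) and in an 8-gene stromal list (2846 to 4054 CPM, against 259 to 599 CPM), and no gene of either list was at 0 in all Mx1 libraries. The part of these features in the Mx1 results below was not tested beyond the fits and subsets given there. In bulk RNA, fewer cells of a type and less RNA per cell cannot be told apart.

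**Figure D1:**
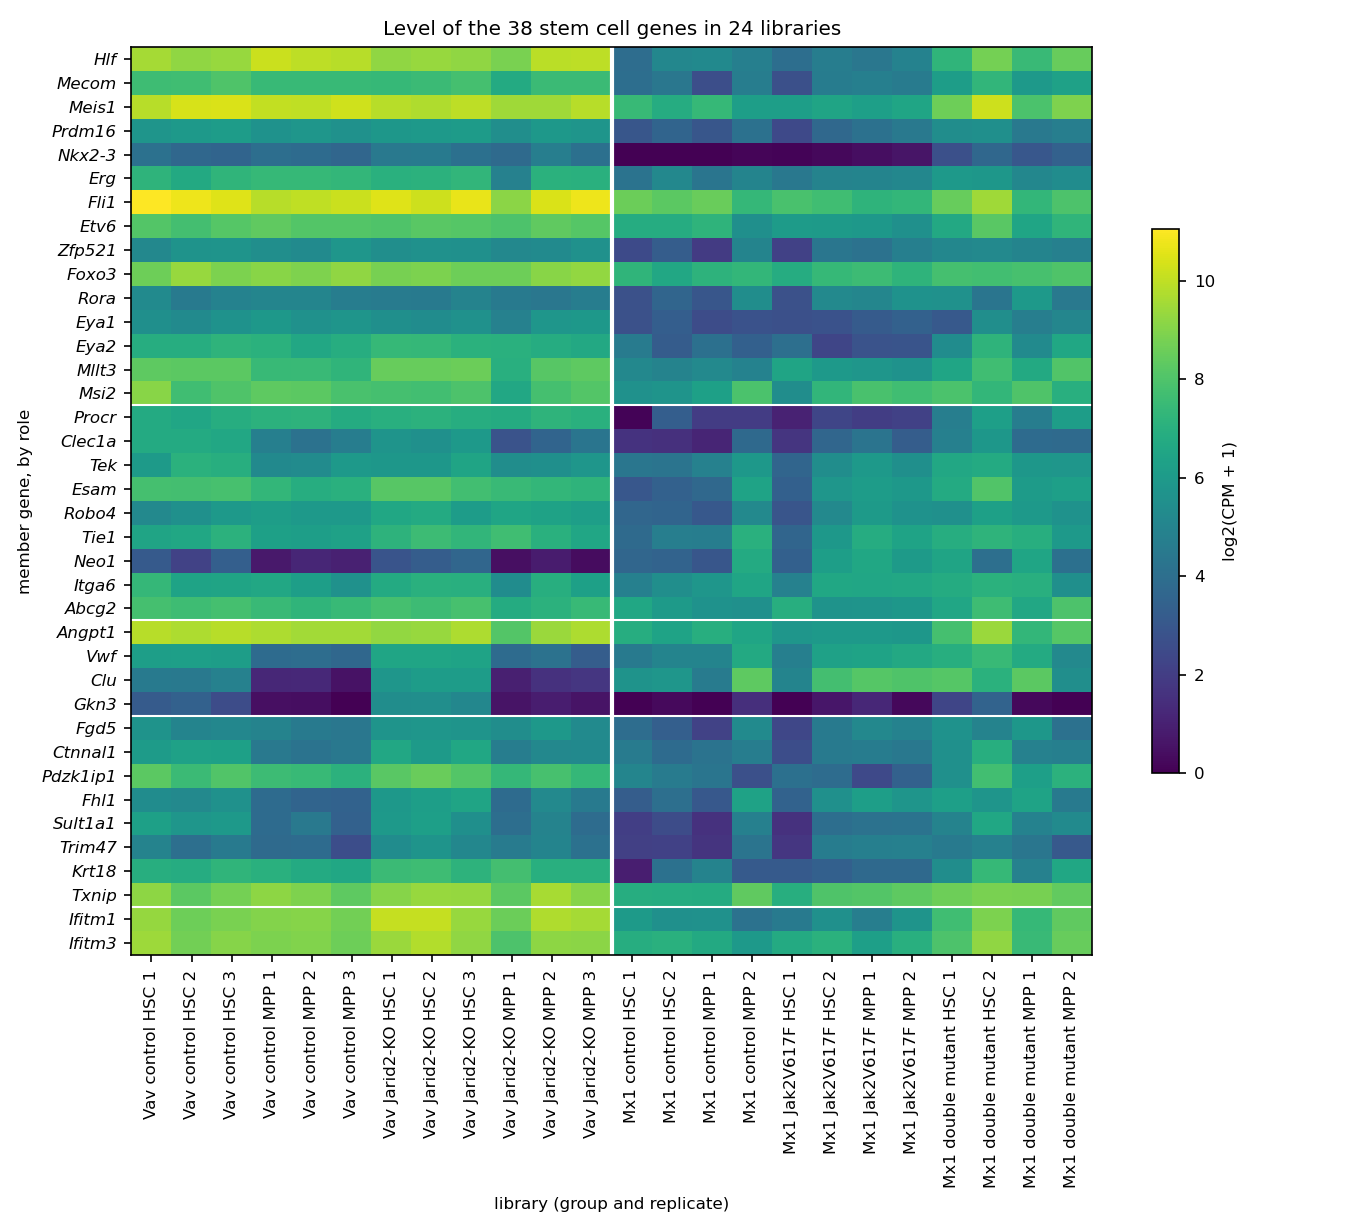
Level of the 38 genes, as log2(CPM + 1), in each of the 24 libraries (columns, with the Vav cohort left of the white vertical line and the Mx1 cohort right of it), with rows ordered by role. Summed over the members, the 12 Vav libraries hold 5509 to 10621 CPM, the 8 Mx1 control and Jak2V617F libraries 1304 to 2589 CPM and the 4 double mutant libraries 3880 to 7988 CPM.

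Per kilobase of exon, the scale on which different genes can be compared, the 38 genes spanned a wide range in Vav control HSC. Ifitm3, a membrane protein that restricts virus entry, had the highest mean level, 800 ± 200 RPKM (SD, n = 3), with no overlap with the next gene. Fli1, an ETS family transcription factor (511 ± 94.1 RPKM, SD, n = 3), and Ifitm1, a close paralog of Ifitm3 (450 ± 113 RPKM, SD, n = 3), followed and overlapped each other. Angpt1, the ligand of the receptor Tek, came next at 211 ± 13.7 RPKM (SD, n = 3), separate from the genes on either side. From the fifth place on, Txnip (145 RPKM), Pdzk1ip1 (141 RPKM), Meis1 (115 RPKM) and Hlf (99.7 RPKM) each overlapped the next gene down. At the bottom stood Vwf at 4.53 ± 0.176, Rora at 2.28 ± 0.593 and Neo1 at 0.924 ± 0.393 RPKM (SD, n = 3), which did not overlap each other. Control MPP kept Ifitm3 (669 RPKM), Ifitm1 (446 RPKM), Fli1 (296 RPKM) and Angpt1 (179 RPKM) in the first 4 places, and the last 4 were Vwf, Clu, Gkn3 and Neo1 at 0.833, 0.305, 0.280 and 0.135 RPKM. Reads of Ifitm1 and Ifitm3, and of Krt18 and its pseudogene copies, may have been split between near-identical sequences, so the levels of these 3 genes are uncertain.

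Progenitors held 8 of the 38 genes at lower levels than stem cells in Vav control mice, and none at a higher level past the test. In edgeR's quasi-likelihood test with Benjamini-Hochberg adjustment over all 15818 genes, 1.17% of genes passed in either direction and 0.657% passed as lower. Of the 8, 3 are among the 4 secreted proteins (Vwf, Clu, Gkn3), 2 among the 9 receptors (Clec1a, Neo1) and 3 among the 8 intracellular effectors (Ctnnal1, Fhl1, Sult1a1), with 0 of 15 transcription and RNA regulators and 0 of 2 interferon-induced genes. The median log2 fold change, MPP minus HSC, was -0.36 over the members and -0.02 over all genes tested. The libraries of the 2 groups did not overlap for 18 members lower and 3 higher in MPP, against 7.69% and 10.7% of all genes.

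Among the secreted proteins, Vwf, the adhesive glycoprotein that carries platelets to injured vessels and that marks platelet-biased stem cells, had 72.9, 75.5 and 69.8 CPM in control HSC and 13.8, 14.4 and 12 CPM in control MPP. The 3 stem cell libraries lay close together and far above the progenitors. Its log2 fold change was -2.51 (SE 0.23, adjusted p = 9.29e-05). Clu encodes clusterin, a secreted chaperone. It had 21.7, 20.8 and 28.2 CPM in control HSC and 1.31, 1.39 and 0.441 CPM in control MPP, the latter from 29, 28 and 10 reads, and its log2 fold change was -4.56 (SE 0.39, adjusted p = 9.29e-05). Gkn3, a gastrokine known as a secreted protein of the stomach lining, had 8.01, 9.89 and 4.96 CPM in control HSC. In control MPP it had 8, 7 and 0 reads, a level near the limit of detection, and its log2 fold change was -5.08 (SE 0.59, adjusted p = 0.000454). Angpt1 was the 1 secreted protein that did not pass, at 833 to 944 CPM in HSC and 724 to 830 CPM in MPP, with a log2 fold change of -0.29.

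2 receptors passed. Clec1a, a C-type lectin-like receptor of endothelium and myeloid cells, had 108, 106 and 99 CPM in control HSC and 26.2, 17 and 24.6 CPM in control MPP, with no overlap and a log2 fold change of -2.26 (with SE 0.33, adjusted p = 0.00282). Neo1, a receptor for netrins and repulsive guidance molecules, was low throughout, at 7.86, 3.55 and 9.07 CPM in control HSC and 0.680, 1.29 and 1.01 CPM in control MPP, and its log2 fold change was -2.81 (SE 0.47, adjusted p = 0.00771). Tek, the angiopoietin receptor, missed the threshold at 63.9, 134 and 119 CPM against 36.4, 39 and 60.3 CPM (log2 fold change -1.28, adjusted p = 0.0618), as did Esam, an endothelial adhesion molecule also used to sort stem cells (-0.77, adjusted p = 0.0742). Both passed by DESeq2 and limma-voom. Procr, the endothelial protein C receptor that is a sorting marker of stem cells, had 90.8 to 119 CPM in HSC and 111 to 139 CPM in MPP.

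The 3 intracellular effectors that passed differed by less. Ctnnal1, which encodes the catenin-like protein alpha-catulin, had 65.2, 78.8 and 77.6 CPM in control HSC and 20.9, 17.5 and 20.6 CPM in control MPP (log2 fold change -1.97, SE 0.23, adjusted p = 0.000419). Fhl1, a LIM domain protein, had 41, 36.2 and 47.6 CPM and 13.4, 11 and 10.1 CPM (-1.91, SE 0.29, adjusted p = 0.00398). Sult1a1, a sulfotransferase of phenols and drugs, had 76.9, 55.2 and 60.5 CPM and 13.4, 21.3 and 9.88 CPM (-2.18, SE 0.33, adjusted p = 0.00398). For each of the 3 genes every stem cell library lay above every progenitor library.

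None of the transcription and RNA regulators passed between the cell types in edgeR, and they had a median log2 fold change of -0.09 and a range from -0.98 (Mllt3) to 0.56 (Hlf). Hlf, a PAR bZIP factor required for stem cell maintenance, was higher in each control MPP library (1163, 982 and 936 CPM) than in any control HSC library (747, 592 and 659 CPM), without passing in edgeR (adjusted p = 0.519), though limma-voom called it (adjusted p = 0.0218). Mllt3, a subunit of the super elongation complex known to maintain human stem cells, went the other way at 172, 177 and 148 CPM in MPP and 321, 304 and 309 CPM in HSC (adjusted p = 0.0998 in edgeR). It was called by DESeq2 (adjusted p = 0.0201), by limma-voom (0.000751), in edgeR with no filter on low counts (0.00606) and in edgeR with only the groups compared (0.00667). Mecom, Meis1, Prdm16, Nkx2-3, Zfp521, Foxo3, Rora, Etv6, Eya1, Eya2, Erg and Msi2 had log2 fold changes between -0.38 and 0.27, and Fli1 one of -0.85 (adjusted p = 0.384 in edgeR, 0.0379 with no filter and 0.0175 by limma-voom).

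**Figure D2:**
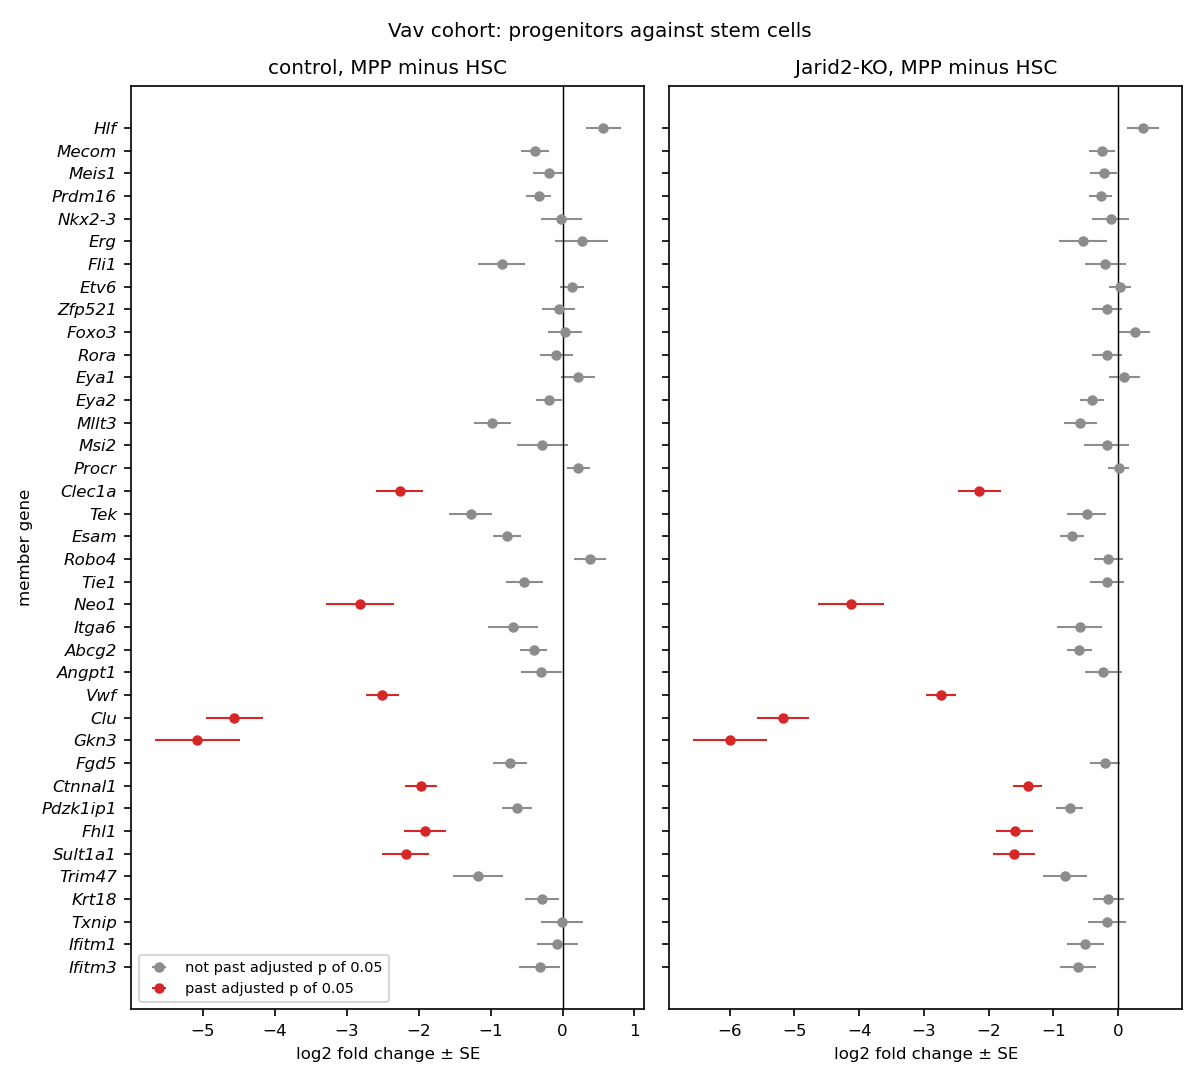
log2 fold change of each member, MPP minus HSC, with its SE, in Vav control (left) and Vav Jarid2-KO libraries (right), 3 against 3 in each. In red are the 8 genes past the threshold, which are the same in both panels, and the largest falls are those of Gkn3 (-5.08 and -5.99) and Clu (-4.56 and -5.18).

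The same 8 genes were lower in MPP than in HSC when both were Jarid2-KO, again with 0 higher, where 0.525% of all genes passed in either direction, 0.348% as lower and 0.177% as higher. With only these 2 groups fitted, 4 of the 8 passed (Neo1, Vwf, Clu and Gkn3), against 0.133% of all genes as lower. These are other libraries than the control ones, but the spread was estimated over all 12. The median log2 fold change of the members was -0.34 (-0.58 without Jarid2-KO MPP replicate 3), against 0.05 over all genes, and 16 members were lower with no overlap between libraries against 6.87% of all genes, while 0 were higher against 4.88%. Vwf had 88.4, 90.1 and 85.3 CPM in Jarid2-KO HSC and 13.6, 17 and 8.50 CPM in Jarid2-KO MPP (log2 fold change -2.74, SE 0.23, adjusted p = 6.63e-05). Clu had 54.8, 68.6 and 68.9 CPM and 0.940, 2.00 and 2.39 CPM (-5.18, SE 0.40, adjusted p = 4.06e-05). Gkn3 had 42.4, 42.7 and 34.2 CPM and 0.501, 0.835 and 0.477 CPM (-5.99, SE 0.58, adjusted p = 0.00014). In all 3 secreted proteins the knockout stem cells stood far above the knockout progenitors.

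For the other 5 the differences in Jarid2-KO libraries were as follows. Neo1 had 6.28, 8.48 and 11.7 CPM in HSC and 0.376, 0.779 and 0.286 CPM in MPP (-4.13, SE 0.51, adjusted p = 0.00121). Clec1a had 51, 45.4 and 62.8 CPM and 6.14, 11 and 18.8 CPM (-2.14, SE 0.33, adjusted p = 0.00752). The intracellular effectors showed smaller log2 fold changes, -1.39 for Ctnnal1 (98.2, 63.9 and 94.4 CPM against 25.1, 34.7 and 37 CPM, adjusted p = 0.00925), -1.60 for Fhl1 (57.7, 72.2 and 85.8 CPM against 13.5, 36.3 and 21.6 CPM, adjusted p = 0.0178) and -1.61 for Sult1a1 (60.8, 74.4 and 44.4 CPM against 15, 30 and 13.8 CPM, adjusted p = 0.0416). No library of one cell type overlapped the other for any of the 5.

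Other lists moved between the cell types in control mice as well. Of 28 other stem cell regulators, 5 fell in MPP (among them Slamf1 -3.90, Runx1t1 -2.54, Cdkn1c and Socs2 in log2 fold change) and Cd34 rose (1.63). Slamf1 encodes CD150, the marker on which the HSC and MPP gates differ, so its fall follows the sort and is no separate result. Among 17 progenitor and lineage priming genes 6 rose, with Flt3, the receptor of multipotent and lymphoid progenitors (3.33), and Dntt, the lymphoid terminal transferase (2.81), ahead of Satb1 and Cd52. Of 10 megakaryocyte and platelet genes, 8 were tested and 4 fell (Treml1 -2.52, Itgb3 -1.67, Mmrn1, Gp9), and the list summed to 828 to 1255 CPM in control HSC and 363 to 507 CPM in control MPP, and none of its 10 genes was at 0 in all Vav libraries. Vwf is itself a platelet gene, and the part of megakaryocyte RNA in its difference was not tested. In Jarid2-KO the counts were 1 rise (Hoxa9) and 1 fall (Slamf1, the gate gene) among the regulators, 2 rises (Flt3, Satb1) among priming genes and 1 fall (Gp9) among megakaryocyte genes. Endothelial genes, which could accompany Tek, Tie1, Esam and Robo4, summed to 46.1 to 78.6 CPM over the 12 Vav libraries, and 0 of the 9 tested passed.

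**Figure D3:**
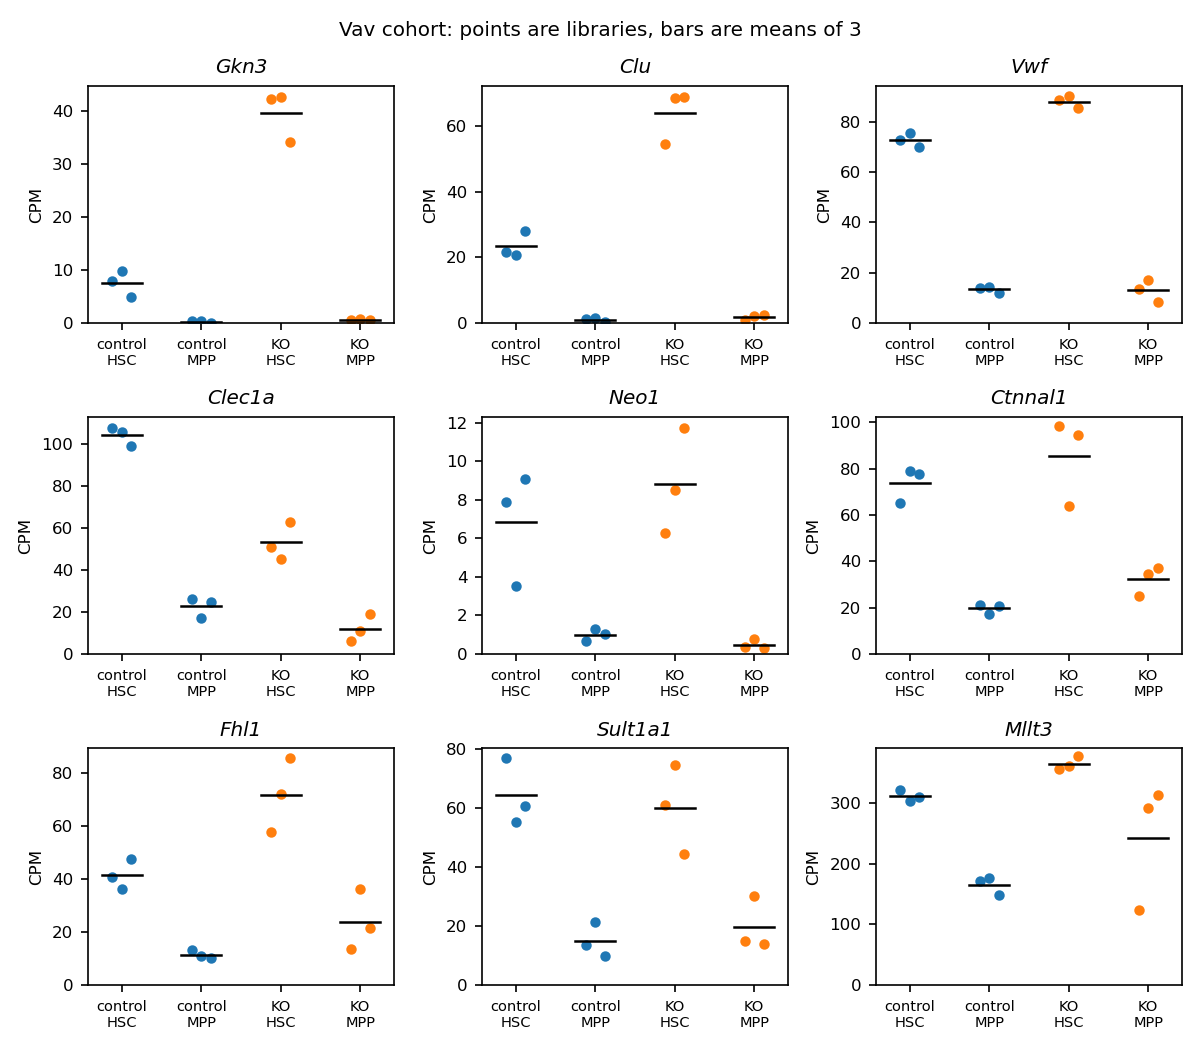
CPM of 9 members in the 12 Vav libraries (points, 1 per library) with the mean of each group of 3 (bar), on axes that start at 0. Gkn3 stands at 4.96 to 9.89 CPM in control HSC and 34.2 to 42.7 CPM in Jarid2-KO HSC, and Clec1a at 99 to 108 CPM against 45.4 to 62.8 CPM.

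Upstream sequence was at hand for 28 of the 38 members (37 promoters), in RefSeq's table for GRCm38.p6, the same mouse build as mm10. It was searched, on both strands and in the 250 bases before the start, for motifs of factor families that are themselves among the members: CGGAAG and AGGAAG for ETS factors (Erg, Fli1, Etv6), TGACAG for Meis1, GTAAACA for Foxo3 and AGGTCA for Rora, and for AGATAA of GATA factors. Of the 37 member promoters 10.81% held CGGAAG and 24.32% AGGAAG, against 13.59% and 29.48% of all 32851 promoters. For TGACAG the shares were 18.92% and 15.86%, for AGGTCA 18.92% and 14.02%, for GTAAACA 2.7% and 3.17% and for AGATAA 2.7% and 9.99%. Member promoters had a median of 13 CG dinucleotides in these 250 bases, and all promoters a median of 6. These medians are not like for like, since all promoters were taken without the filter on low counts that every member passed. Nor are the 37 independent, as Msi2 gave overlapping stretches with 30, 29 and 29 CG dinucleotides. The 3 printed here belong to genes that fell from HSC to MPP, each 5′ to 3′ on the gene's strand with motif matches in capitals. Sult1a1 and Neo1 are the extremes, with the lowest and highest CG counts of the 37 member promoters. Of the other genes that fell and had upstream sequence, Ctnnal1 had 18 CG dinucleotides, and the promoters of Fhl1 had 2 and 3. The first is Gkn3 (chr6:87388936-87389185, minus strand), with 5 CG dinucleotides, 40.8% G and C and no match. The second is Sult1a1 (chr7:126676419-126676668, minus strand), with 0 CG dinucleotides and 2 AGGAAG matches beginning 186 and 6 bases before the start, the latter on the opposite strand and inside the gene as the deposited tables bound it. The third is Neo1 (chr9:59036442-59036691, minus strand), with 45 CG dinucleotides, 83.2% G and C and no match.
Gkn3: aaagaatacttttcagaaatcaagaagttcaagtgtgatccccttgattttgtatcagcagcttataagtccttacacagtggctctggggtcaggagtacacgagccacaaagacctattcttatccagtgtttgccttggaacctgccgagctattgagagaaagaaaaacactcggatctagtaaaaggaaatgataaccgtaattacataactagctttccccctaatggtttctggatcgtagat
Sult1a1: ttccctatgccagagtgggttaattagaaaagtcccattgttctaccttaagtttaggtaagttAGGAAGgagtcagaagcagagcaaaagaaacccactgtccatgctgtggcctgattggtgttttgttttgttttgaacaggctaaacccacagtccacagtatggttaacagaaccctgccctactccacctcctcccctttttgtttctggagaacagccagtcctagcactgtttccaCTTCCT
Neo1: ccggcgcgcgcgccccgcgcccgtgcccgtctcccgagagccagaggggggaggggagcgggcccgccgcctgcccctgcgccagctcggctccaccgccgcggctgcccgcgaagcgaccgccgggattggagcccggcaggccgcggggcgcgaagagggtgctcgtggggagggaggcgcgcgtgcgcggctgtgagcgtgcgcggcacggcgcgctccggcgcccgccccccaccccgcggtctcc
A match is a string of letters and not a measured binding site.

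Between Jarid2-KO and control stem cells of the Vav cohort, Gkn3 rose, and it was the 1 member of 38 past the test, where 0.569% of all genes passed in either direction and 0.253% as higher and 0.316% as lower. The members' median log2 fold change, Jarid2-KO minus control, was 0.15 against -0.03 over all genes. The libraries did not overlap for 10 members higher and 2 lower in the knockout, and 16.2% and 10.7% of all genes did the same. As given above, Gkn3 stood at 8.01, 9.89 and 4.96 CPM in control HSC and at 42.4, 42.7 and 34.2 CPM in Jarid2-KO HSC, a log2 fold change of 2.31 (with SE 0.46, adjusted p = 0.0418). Every knockout library was above every control library, but with any 1 of the 6 HSC libraries left out the adjusted p was 0.0882 to 0.191 with log2 fold changes of 2.05 to 2.60.

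Clu came next by p, with 21.7, 20.8 and 28.2 CPM in control HSC and 54.8, 68.6 and 68.9 CPM in Jarid2-KO HSC (log2 fold change 1.38, SE 0.33, adjusted p = 0.0818). Robo4, a roundabout receptor that helps anchor stem cells in the marrow, had 36.4, 46.3 and 59.9 CPM against 96.2, 107 and 68.1 CPM (0.87, SE 0.22, adjusted p = 0.0978). Neither gene's libraries overlapped, and neither passed in edgeR. Clu was called by DESeq2 (adjusted p = 0.00105), by limma-voom (0.00229), with no filter (0.000876) and with only the groups compared (0.00895), and Robo4 by the first 3 of these (0.014, 0.0222 and 0.0205). Clec1a, lower in progenitors, was also lower in each knockout stem cell library, at 51, 45.4 and 62.8 CPM against 108, 106 and 99 CPM in control (-1.05, SE 0.31, adjusted p = 0.145 in edgeR), and the same 4 alternatives as for Clu called it (0.00734 to 0.0392). Vwf stood at 69.8 to 75.5 CPM in control and 85.3 to 90.1 CPM in knockout HSC, a log2 fold change of 0.20 (adjusted p = 0.654).

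By role, the transcription and RNA regulators had a median log2 fold change of -0.07 and a range from -0.62 (Msi2) to 0.53 (Nkx2-3), the receptors 0.20, the secreted proteins 0.79, the intracellular effectors 0.40 and the interferon-induced pair 0.60. Meis1 had 925 to 1377 CPM in control HSC and 856 to 997 CPM in Jarid2-KO HSC (-0.45, adjusted p = 0.299), Hlf 592 to 747 CPM against 590 to 657 CPM (-0.18, adjusted p = 0.747), and Angpt1 833 to 944 CPM against 621 to 820 CPM (-0.44, adjusted p = 0.448). Ifitm1 had 396 to 632 CPM in control and 658 to 1076 CPM in knockout HSC (0.87, adjusted p = 0.17 in edgeR, 0.0131 by limma-voom, 0.0107 without the filter), and Ifitm3 had a log2 fold change of 0.34. Of 16 other interferon response genes, 4 fell (among them Oas2 -2.42, Ifit3 -1.51 and Usp18) and 0 rose. Of the 28 other stem cell regulators, Mycn rose (1.09). The granulocyte and monocyte list summed to 1269 to 3826 CPM in control HSC and 3316 to 9071 CPM in Jarid2-KO HSC, with 0 of its 11 genes past the test, and its part in these differences was not tested.

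In progenitors 0 of 38 members passed between Jarid2-KO and control in edgeR, where 0.948% of all genes did. 9 members had an unadjusted p under 0.05, and the share of all genes at that cut is not given here. DESeq2 called 5 members and 7.17% of all genes, and limma-voom 3 and 2.82%. The members' median log2 fold change was 0.04 against 0.02 over all genes, with 7 members higher and 2 lower without overlap against 9.07% and 12.6% of all genes. The 3 genes of smallest p were higher in each knockout library. Fgd5, a guanine nucleotide exchange factor whose locus marks stem cells, had 29.8, 22.3 and 20 CPM in control MPP and 41.2, 58.7 and 37.8 CPM in Jarid2-KO MPP (log2 fold change 0.93, SE 0.24, adjusted p = 0.0766). Fhl1 had 13.4, 11 and 10.1 CPM against 13.5, 36.3 and 21.6 CPM (1.04, SE 0.29, adjusted p = 0.091). Tie1, the orphan receptor that partners Tek, had 77.3, 71.3 and 79.9 CPM against 200, 130 and 93.6 CPM (0.90, SE 0.26, adjusted p = 0.101). All 8 intracellular effectors had a positive log2 fold change, from 0.15 to 1.18 (Trim47, adjusted p = 0.106).

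Replicate 1 of Jarid2-KO MPP, the library that stood apart, weighed on this comparison. It had Erg at 28.3 CPM against 105 to 169 CPM in the other 11 Vav libraries, Angpt1 at 276 CPM against 621 to 944 CPM, Msi2 at 96.6 CPM against 203 to 536 CPM and Fli1 at 563 CPM against 921 to 2126 CPM. Its Mllt3 was 123 CPM, and the other knockout libraries had 291 and 314 CPM against 172, 177 and 148 CPM in control MPP. Without it, 2 members passed, Mllt3 (log2 fold change 0.86, adjusted p = 0.0148) and Fhl1 (1.31, adjusted p = 0.0101), with 0.935% of all genes. Without replicate 3 in its place, 5 passed, Clec1a lower (-1.43, adjusted p = 0.0141) and Tie1, Fgd5, Fhl1 and Trim47 higher (1.04 to 1.37), with 9.03% of all genes.

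Other stem cell regulators outside the 38 did rise in Jarid2-KO progenitors. Of the 28 tested, 3 rose, the cytokine signalling inhibitor Socs2 (2.02, adjusted p = 0.00144), the transcriptional corepressor Runx1t1 (1.87, adjusted p = 0.00214) and the Myc family gene Mycn (1.55, adjusted p = 0.00365), and 0 fell. Of the 17 priming genes 3 fell, Dntt (-1.38), Satb1 (-1.34) and Il12a (-1.03). Of the 16 interferon response genes 5 fell, among them Ifi27l2a (-2.96) and Oasl2 (-1.52), while Ifitm1 and Ifitm3 had log2 fold changes of 0.44 and 0.03 and did not pass. These lists were drawn up with earlier results of these data known.

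**Figure D4:**
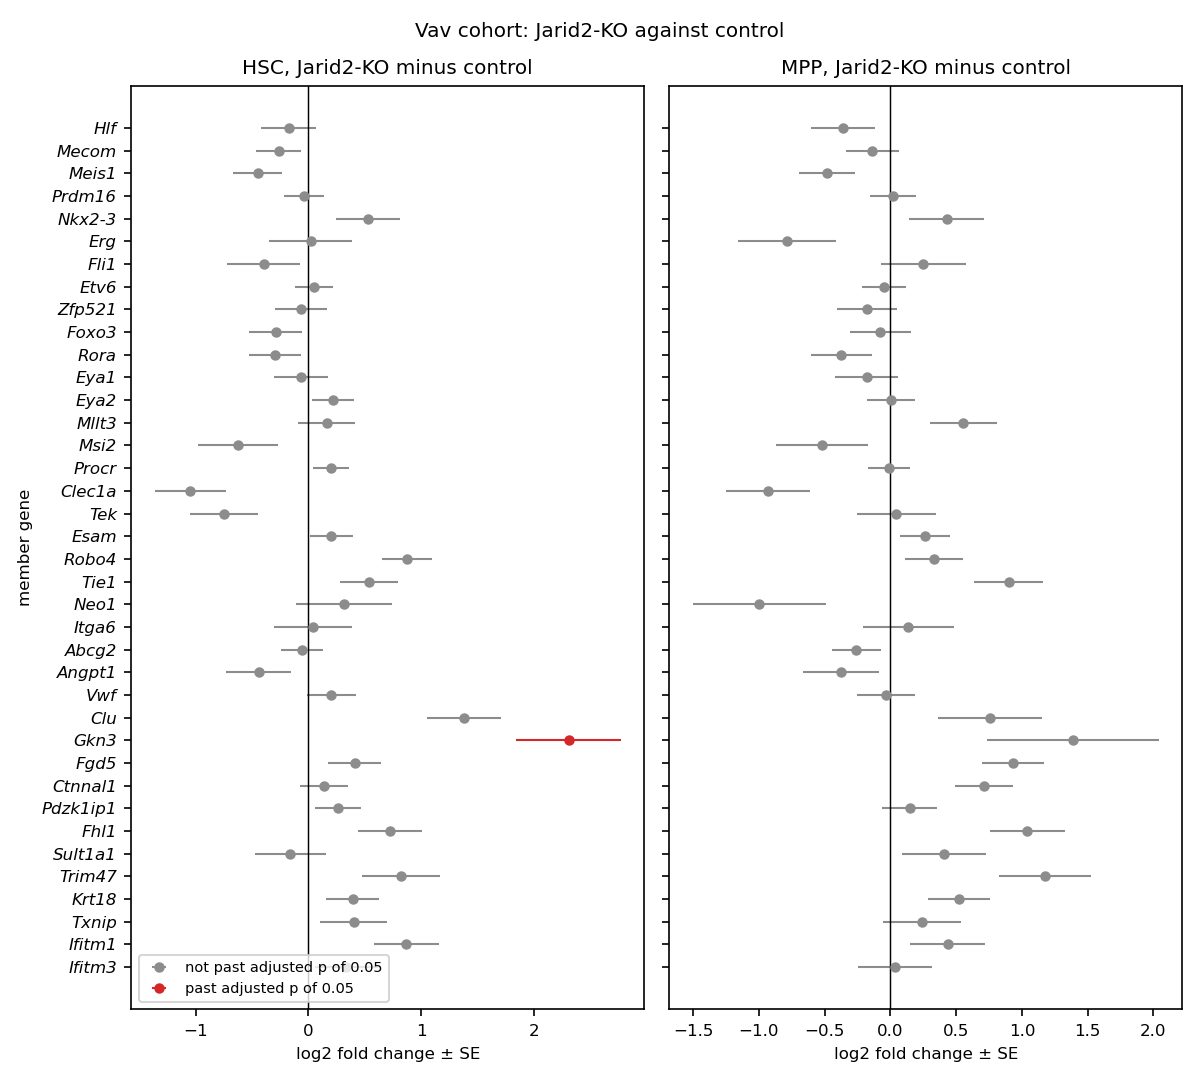
log2 fold change of each member, Jarid2-KO minus control, with its SE, in HSC (left) and MPP (right) of the Vav cohort, 3 libraries against 3. Gkn3 in HSC (2.31) is the 1 value in red, past the threshold, and the other members lie between -1.05 and 1.39 in both panels.

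The difference between the knockout's effect in MPP and in HSC, tested as an interaction, passed for 0 of 38 members in edgeR and 0% of all genes, with 0 members at an unadjusted p under 0.05 and none called under any alternative tool. The members' median interaction was -0.06, against 0.07 over all genes. The 3 of smallest p were Neo1 (-1.31, SE 0.66), Tek (0.79, SE 0.42) and Ctnnal1 (0.57, SE 0.31), each at an adjusted p of 0.99987. Gkn3, called in HSC and not in MPP, had an interaction of -0.92 that did not pass, so its effect was not shown to differ between the cell types.

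In the Mx1 cohort 0 members passed in any of the 8 comparisons in edgeR, as did 0% of the 19616 genes tested. With 2 libraries a group and a biological coefficient of variation of 0.786, against 0.337 in the Vav fit, the libraries of a group differed far more here than in the Vav cohort. Each comparison is described by its libraries, by the members' median and, where groups differ in heart muscle counts, within libraries of like heart share.

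Control MPP minus control HSC had a median of 0.74 over the members and 0.05 over all genes. Leaving out control MPP replicate 2, the control library with 6.18% heart muscle counts, turned it to -0.20. Of the 8 genes lower in Vav MPP, 0 had a negative log2 fold change here, and 2 of 8 had one in the comparison over all 3 genotypes. Clu shows the pattern, at 49.9 and 54.9 CPM in control HSC, 23.4 CPM in control MPP replicate 1 and 317 CPM in replicate 2. In 20 members, among them Clu, Vwf, Neo1, Tie1 and Fhl1, all 6 libraries with over 4% heart muscle counts lay above the 4 control and Jak2V617F libraries under 4%, as did 20.9% of all genes. The 20 include Tek, Esam, Tie1, Robo4 and Vwf, which endothelium also expresses, and the part of endothelial RNA in their levels was not tested. Esam had the smallest p, with 7.12 and 9.93 CPM in HSC against 12.3 and 84.3 CPM in MPP (2.38, adjusted p = 0.843), then Tie1 with 13.1 and 25.6 against 24.6 and 129 CPM and Msi2 with 47.1 and 51.7 against 77 and 242 CPM. In each of the 3 genes replicate 2 was the high one. 5 members were higher and 3 lower without overlap, against 11.2% and 13.7% of all genes.

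Averaged over the 3 Mx1 genotypes, MPP minus HSC had a member median of 0.27 and 0 members without overlap in either direction, against 0.0408% of all genes higher and 0.0204% lower. Fli1 led by p with -0.78 (145 to 365 CPM in 6 MPP libraries, 201 to 712 CPM in 6 HSC libraries), then Msi2 with 0.89 (77 to 257 and 41.7 to 241 CPM) and Tie1 with 0.97 (24.6 to 129 and 11.3 to 146 CPM), each at an adjusted p of 0.741. The groups overlapped broadly in all 3.

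Libraries labelled Jak2V617F HSC had a member median of 0.22 over those labelled control HSC, against 0.09 over all genes. The member median became -0.55 without Jak2V617F HSC replicate 2 (4.05% heart muscle counts). Among the 3 HSC libraries under 4%, 30 of 38 members were lower in Jak2V617F, as were 54.2% of all genes. 4 members were higher and 6 lower without overlap, against 13.7% and 13.3% of all genes. Esam had 7.12 and 9.93 CPM in control and 9.52 and 55.5 CPM in Jak2V617F, Mllt3 34.6 and 29.9 against 86.2 and 60.2 CPM, and Nkx2-3, a homeobox factor, 0 and 0 reads against 1 and 2. In MPP the median was 0.31 against -0.02, 0.98 without control MPP replicate 2, and -0.05 among the 3 libraries over 4% (18 members higher, 20 lower, with 45.3% of all genes lower). There 9 members were higher and 3 lower without overlap, against 16% and 8.47% of all genes. Nkx2-3 had 0 and 1 reads in control MPP and 4 and 6 in Jak2V617F MPP, Robo4 7.19 and 35.5 CPM against 64.8 and 48.2 CPM, and Angpt1 120 and 90.4 CPM against 59.9 and 56.8 CPM. The adjusted p of every member was 1 in both comparisons.

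**Figure D5:**
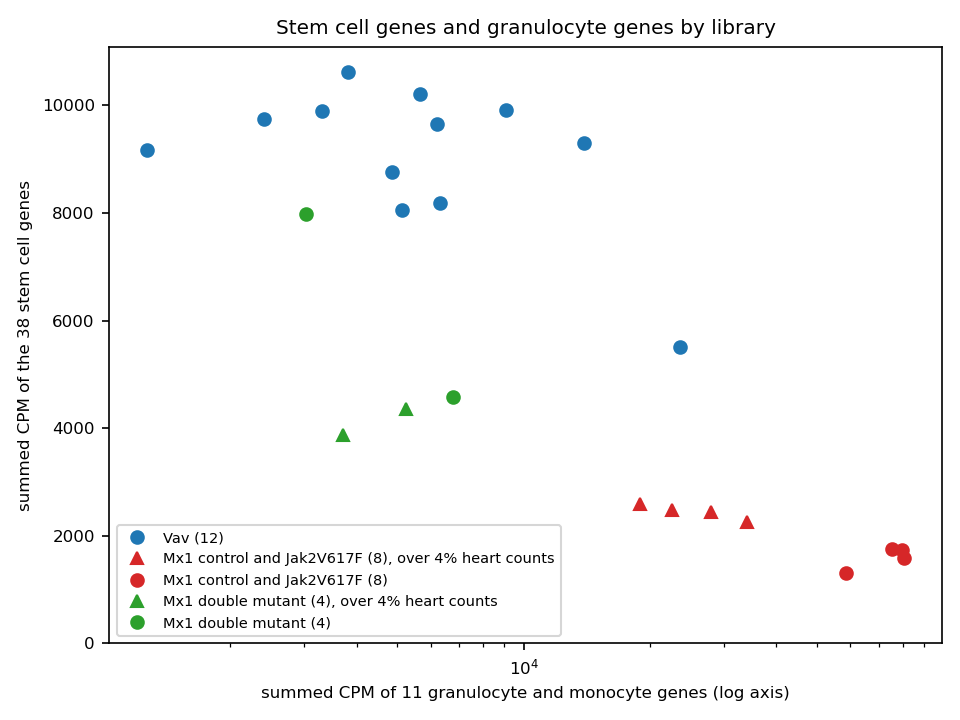
Summed CPM of the 38 members (vertical axis) against summed CPM of 11 granulocyte and monocyte genes (horizontal log axis), 1 point per library, with triangles for libraries over 4% heart muscle counts. The 8 Mx1 control and Jak2V617F libraries lie at 18954 to 80551 CPM of granulocyte genes and 1304 to 2589 CPM of members, and the 4 double mutant libraries at 3025 to 6788 and 3880 to 7988 CPM.

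Between the double mutant and the other Mx1 libraries 0 members passed in edgeR, and 16 of 38 had all 4 double mutant libraries above the other 8, as did 1.99% of all genes. Against Jak2V617F HSC all 38 members had a positive log2 fold change in double mutant HSC, with a median of 1.63 against -0.01 over all genes. For 33 members both double mutant libraries lay above both Jak2V617F libraries, and 17.4% of all genes did so. None passed (lowest adjusted p = 0.202). An unadjusted p under 0.05 was found for 19, and the share of all genes at that cut is not given here. A DESeq2 Wald test called 12, all higher, with 0.757% of all genes. Within the single pair of libraries over 4% heart muscle counts 37 of 38 were higher (median log2 difference of CPM + 0.5, 0.97) and 51.5% of all genes, and within the pair under 4% all 38 (3.19) and 60.3% of all genes. With the heart share as a covariate in edgeR 17 members passed, all higher, as did 0.846% of all genes. Libraries of like heart share were not alike in the granulocyte and monocyte list. It stood at 5254 against 33994 CPM in the pair over 4%, and at 3025 against 58567 CPM in the pair under 4%. In the 4 double mutant libraries it was 3025 to 6788 CPM, and in the other 8 it was 18954 to 80551 CPM. The part of this list in every double mutant comparison was not tested.

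Hlf led in all 4 comparisons of the double mutant. It had 147 and 427 CPM in double mutant HSC, 14.9 and 25 CPM in Jak2V617F HSC and 14.3 and 33.5 CPM in control HSC, against 592 to 747 CPM in Vav control HSC. Double mutant minus Jak2V617F was 3.55 (SE 0.66, adjusted p = 0.202) and double mutant minus control 3.23 (SE 0.65, adjusted p = 0.073), and both comparisons share the double mutant libraries. Angpt1 had 224 and 673 CPM against 54.2 and 61.9 CPM in Jak2V617F HSC (2.63, SE 0.60), and Meis1, the homeobox cofactor of Hox proteins, 396 and 1183 CPM against 73.2 and 86.8 CPM (2.99, SE 0.70), both at an adjusted p of 0.211. In these 3 genes both double mutant HSC libraries lay above all 8 control and Jak2V617F libraries.

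Against control HSC, all 38 members were positive again, with a median of 2.03 against 0.11 over all genes. Of these members 34 were without overlap, against 23.9% of all genes, and 0 were past the test. An unadjusted p under 0.05 was found for 27, and the share of all genes at that cut is not given here. Among the 3 HSC libraries under 4% heart muscle counts all 38 were higher (median 2.67), as were 59% of all genes. With the heart covariate 17 passed as higher, against 0.963% of all genes. Nkx2-3 had 92 and 108 reads in double mutant HSC and 0 reads in both control libraries. Esam had 108 and 263 CPM against 7.12 and 9.93 CPM (4.07, SE 0.91, adjusted p = 0.0997). Clec1a, at 27.5 and 56.3 CPM against 2.09 and 1.88 CPM, and Procr, at 25.8 and 74.4 CPM against 0.0653 and 8.89 CPM, were likewise higher in both libraries. The granulocyte and monocyte list went the other way, at 3025 and 5254 CPM in double mutant HSC and 75543 and 80551 CPM in control HSC, and Slamf1 was 30.8 and 124 CPM in double mutant HSC. The megakaryocyte and platelet list stood at 499 and 1761 CPM in double mutant HSC and 114 to 297 CPM in the other 4 HSC libraries, and the interferon response list at 470 to 1053 CPM in the 4 double mutant libraries and 231 to 292 CPM in the other 8. The part of these lists in the members' differences was not tested.

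In libraries labelled double mutant MPP, 26 of 38 members were positive against Jak2V617F MPP, with a median of 0.34 against -0.04. Without overlap, 23 were higher and 1 lower, against 16.9% and 15.4% of all genes. None passed in edgeR, and DESeq2 called 4 as higher, with 0.218% of all genes. An unadjusted p under 0.05 in edgeR was found for 11, with the share of all genes at that cut not given here. Hlf had 180 and 352 CPM against 19.9 and 28.9 CPM (3.36, SE 0.65). Pdzk1ip1, a small membrane protein counted here among the intracellular effectors, had 73.5 and 138 CPM against 4.44 and 9.66 CPM (3.82, SE 0.83). Eya2, a transcriptional coactivator and phosphatase, had 38.7 and 95.9 CPM against 6.03 and 6.22 CPM (3.37, SE 0.89). The first 2 had an adjusted p of 0.503 and Eya2 0.808. By role, 13 of 15 transcription and RNA regulators were higher without overlap, as were 5 of 8 intracellular effectors, both Ifitm genes, 2 of 9 receptors and 1 of 4 secreted proteins. The 3 libraries over 4% heart muscle counts gave 36 of 38 members higher (median 0.57) and 50.6% of all genes.

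Against control MPP 33 of 38 members were positive, with a median of 0.70 against -0.04, and 21 were higher without overlap against 14.1% of all genes. None passed in edgeR, and DESeq2 called 5 as higher, with 0.455% of all genes. An unadjusted p under 0.05 in edgeR was found for 11, with the share of all genes at that cut not given here. Hlf had 37 and 26.2 CPM in control MPP (2.85, SE 0.64, adjusted p = 0.213), Nkx2-3 0 and 1 reads against 75 and 78 in the double mutant, and Mllt3 35.8 and 28.6 CPM against 105 and 266 CPM (2.30, SE 0.59, adjusted p = 0.331). Within the pair of libraries over 4% heart muscle counts 30 members were higher (median 0.49) and 50.5% of all genes, and within the pair under 4% 35 (1.61) and 60.9%. Without control MPP replicate 2 the fitted median was 2.12. The 16 members whose 4 double mutant libraries lay above the other 8 are 8 of the 15 transcription and RNA regulators (Hlf, Mecom, Meis1, Prdm16, Nkx2-3, Foxo3, Eya2 and Mllt3), 1 of 9 receptors (Procr), 1 of 4 secreted proteins (Angpt1), 4 of 8 intracellular effectors (Ctnnal1, Pdzk1ip1, Sult1a1 and Txnip) and both Ifitm genes. The interactions of cell type with Jak2V617F and with added Jarid2-KO passed for 0 members (lowest adjusted p = 0.99997 and 0.99984). Hlf, Foxo3 and Procr, picked out after their values were seen, lay below every Vav library in all 4 double mutant libraries, Hlf at 147 to 427 CPM against 455 to 1163 CPM.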

How the data were processed

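RNA was measured in 24 libraries of sorted mouse HSC and MPP, grouped by the sample labels. Per the submitters' processing notes, STAR 2.0.4, Subread, featureCounts 1.4.5, HTSeq 0.8.0, Partek 6.6 and build mm10 were used, with no role or order given. Libraries were made with a SMARTer Ultra Low kit, per the labels' protocols. The deposited tables hold, per the file headers, raw counts per Ensembl gene, CPM made by the authors from those counts, and RPKM, the authors' CPM per kilobase of exon. Recomputing both from counts and lengths gave the same values. Whether counting used strand is not given in the sources used here.

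Symbols were paired with Ensembl IDs for 40254 of 41388 genes. The members and the other lists were chosen with earlier results of these data known. The exons of 14573 genes are listed differently in the 2 cohorts, at equal gene lengths, so each cohort was fitted on its own with all its groups. Low genes were left out by filterByExpr (at a minimum count of 10 and a total of 15), and libraries were scaled by TMM and tested in edgeR 4.0.16 (R 4.3.3) by the quasi-likelihood F test with robust dispersion, with 8 residual degrees of freedom for Vav and 6 for Mx1. P-values were adjusted by Benjamini-Hochberg over all genes of a fit, with a threshold of 0.05. Standard errors (SE) were taken as the absolute log2 fold change divided by the root of the F statistic. Groups that do not overlap have every library of one above every library of the other. The pipeline was tested on simulated data.

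By rule, values in every library are given for each member past the threshold and for the 3 members of smallest p where fewer than 3 pass, while other lists are given by counts and up to 4 members of smallest p. A few genes that this rule names are not reported here. Alternatives were DESeq2 size factors, no filter, a filter at 20 counts, the DESeq2 1.42.0 Wald test, limma-voom (limma 3.58.1) with quality weights, the replicate number as a block, only the groups compared, leaving out each library, and the heart muscle share as a covariate. Values within libraries over or under 4% heart muscle counts, as log2 of CPM + 0.5, were added after seeing the data. Shares of all genes are over the genes tested in that fit, for DESeq2 over those given an adjusted p.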

Additional observations from a re-analysis of the deposited data

How the results depend on the processing

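Counts of members past the test changed with the setting, and so did the share of all genes. For Jarid2-KO minus control in Vav MPP that share was 0.948% in edgeR, 7.17% by DESeq2 and 2.82% by limma-voom. It was 9.03% in edgeR without Jarid2-KO MPP replicate 3. Where no share of all genes is given, a count below describes the setting and is not a result about the members. In Vav HSC, 1 passed between Jarid2-KO and control in edgeR with all genes and libraries, against 5 with no filter on low counts, 4 by DESeq2, 7 by limma-voom and 3 with only the groups compared, and 0 (range 0 to 0) with any 1 library left out. In Vav MPP the count was 0, against 6 with no filter, 5 by DESeq2, 3 by limma-voom and a range of 0 to 5 over left-out libraries (2 without Jarid2-KO MPP replicate 1, 5 without replicate 3). Control MPP minus HSC gave 8, or 13 by limma-voom (12 lower, 1 higher), with a range of 7 to 9 over left-out libraries. There, Fli1, Mllt3, Tek and Trim47 were also called as lower with no filter, and Mllt3, Tek, Esam and Trim47 by DESeq2. In Jarid2-KO the 8 became 4 with only the groups compared, and the members' median of -0.34 became -0.58 without Jarid2-KO MPP replicate 3. In the Mx1 cohort the double mutant comparisons, each 0, gave higher calls only. Against Jak2V617F, HSC gave 9 with no filter, 12 by DESeq2, 17 with the heart covariate and 0 to 1 over left-out libraries (1 without double mutant HSC replicate 1), and MPP gave 4, 4 and 5, with 1 by limma-voom. Against control, HSC gave 8, 6 and 17, with 2 by limma-voom, 14 with only the groups compared and 0 to 2 over left-out libraries (2 without double mutant HSC replicate 1), and MPP gave 4, 5 and 9. The other Mx1 comparisons stayed at 0 in every setting run, and no direction of a called gene reversed. The cause of these changes was not tested.

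Whether replicate numbers pair the libraries was not settled. In Vav, same-numbered HSC and MPP of a genotype had residuals correlated at -0.01 to 0.30 (median 0.08, 3 of 6 pairs over 0.1). Those with different numbers were correlated at -0.20 to 0.20 (median -0.11, 2 of 12 pairs over 0.1). In Mx1, 2 of 6 same-numbered pairs were over 0.1. With 2 libraries a group the residuals mirror each other, so the check cannot decide there. With the replicate block the counts were 1 and 0 for the knockout in HSC and MPP, 9 (with Tek added) and 8 for MPP minus HSC in control and knockout, and 0 in Mx1.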
